A study of Mus musculus with 12 samples.

Results

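The T cell receptor (TCR) repertoire of CD8+ T cells from the tumors of mice given BF10 was compared with that of CD8+ T cells from the spleens of mice given the same treatment. The study held 12 samples. Tumor, spleen and tumor-draining lymph node (tdLN) gave 1 sample each per treatment, the 4 treatments being BF10, αCSF1R, IL-10-Fc and control IgG, and the 2 BF10 samples from tumor and spleen were chosen by their labels. Together they listed 293041 clonotypes, 146278 in tumor and 146763 in spleen, of 1502315 in all 12 samples. BF10 is a fusion of an antibody against the CSF-1 receptor, which macrophages need to survive, with the cytokine IL-10, and IL-10-Fc and αCSF1R are its parts. The mice were labelled wild type (WT). By the methods they were C57BL/6J mice of 6 to 8 weeks and carried tumors of the mouse oral cancer line Q1-2, and by the labels they were given 30 mg/kg in 3 doses with an interval of 3 days. Every group of the study carried the tumor, the spleen groups included. Each sample was made from mixed RNA of 3 mice and CD8+ cells were isolated with magnetic beads. The labels do not state whether the tumor pool and the spleen pool came from the same mice. The titles of the tdLN samples do not name CD8, unlike those of tumor and spleen. With 1 pooled sample on each side there is no spread between mice to test against, so every difference below is a description of 2 samples. All intervals on shares are 95% Wilson intervals, and they cover counting error only.

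A TCR is a pair of chains, alpha and beta in conventional CD8+ T cells and gamma and delta in a separate lineage. Each chain gene is assembled in the thymus from a variable (V) and a joining (J) segment, with a diversity segment in beta and delta, and bases are trimmed and added at the joints without a template. The joint encodes the third complementarity-determining region (CDR3), the loop that contacts the antigenic peptide. A T cell that divides passes its rearranged chains to its daughters, so a large clonotype can mark a divided clone, whereas joints with few added bases can arise many times in unrelated cells. In these files a clonotype is a CDR3 nucleotide sequence with its assigned V and J regions, for 1 constant region (TRBC beta, TRAC alpha, TRGC gamma, TRDC delta). Its size is the number of unique molecular identifiers (UMIs) with at least 3 reads. A UMI marks a cDNA molecule, and 1 cell can give several. The intervals on UMI shares take each UMI as independent, so they are too narrow for shares of cells.

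The CDR3s below carry most of what follows. The first set shows clonotypes that were large in tumor, and the next a clonotype that was large in spleen. The third set holds chains that were listed at like sizes in both tissues, and the last holds chains known from unconventional T cells. Lower case marks bases that match the germline V or J segment of GRCm38, and capitals mark the bases between these matches, referred to here as junction bases. In beta and delta chains these include bases of the diversity segment.
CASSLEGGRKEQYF, Trbv3 with Trbj2-7, tumor: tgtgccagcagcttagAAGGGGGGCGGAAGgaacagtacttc
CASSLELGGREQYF, Trbv16 with Trbj2-7, tumor: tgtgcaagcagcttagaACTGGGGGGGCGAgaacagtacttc
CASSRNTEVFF, Trbv17 with Trbj1-1, tumor: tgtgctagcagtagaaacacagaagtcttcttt
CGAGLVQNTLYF, Trbv20 with Trbj2-4, tumor: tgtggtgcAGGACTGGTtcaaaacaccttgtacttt
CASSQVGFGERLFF, Trbv5 with Trbj1-4, spleen: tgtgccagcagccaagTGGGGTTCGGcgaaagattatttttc
Trbv1 with Trbj1-1, 14 residues, both: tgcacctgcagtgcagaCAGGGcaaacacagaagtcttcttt
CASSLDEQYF, Trbv16 with Trbj2-7, both: tgtgcaagcagcttagatgaacagtacttc
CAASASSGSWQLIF, Trav14 family with Traj22, both: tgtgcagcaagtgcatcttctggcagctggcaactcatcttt
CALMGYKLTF, Trav12n-3 with Traj9, both: tgtgctctgatgggctacaaacttaccttc
Trav11 or Trav11d with Traj18, most UMIs in spleen: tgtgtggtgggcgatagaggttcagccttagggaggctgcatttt
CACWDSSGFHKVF, Trgv5 with Trgj1, tumor: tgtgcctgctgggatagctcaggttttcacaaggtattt
Trdv4 with Trdj2, both: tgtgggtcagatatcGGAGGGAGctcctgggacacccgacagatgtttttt

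The BF10 tumor and spleen samples were of like depth. The tumor gave 175080 TRBC UMIs in 90267 clonotypes and the spleen 150372 in 86538. For TRAC, there were 117661 UMIs in 55103 clonotypes in tumor and 118744 in 57954 in spleen. Both repertoires were therefore wide, with about as many clonotypes in the tumor as in the spleen, also at equal UMIs, where the tumor held 83564 TRBC clonotypes. A single UMI was seen for 48.2% of TRBC clonotypes in tumor and 52.4% in spleen. The 10 largest TRBC clonotypes took 0.890% of UMIs in tumor and 0.511% in spleen, and 49 tumor and 20 spleen clonotypes had more than 20 UMIs. The upper end of the TRBC size range was thus somewhat heavier in tumor. For TRAC, 81 tumor and 72 spleen clonotypes had more than 20 UMIs.

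The largest beta chain of the tumor was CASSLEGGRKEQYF, with 296 UMIs in tumor (0.169%, 0.151% to 0.189%) against 3 in spleen. The next was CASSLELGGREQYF, with 290 UMIs in tumor and 0 in spleen, at least 83.0-fold more by share (against the 3 UMIs that a count of 0 allows per sample, as for each such bound below). Both were also listed in the tdLN of BF10 mice, at 126 and 73 UMIs. Between their V and J matches lie 14 and 13 bases, a stretch that in beta chains also holds what is left of the diversity segment. Of the 10 largest TRBC clonotypes of the tumor, 3 were listed in the spleen, against 3.59% of all tumor TRBC clonotypes, and 1 of these 3, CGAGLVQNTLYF, had more than 3 UMIs there (123 in tumor against 10 in spleen, 10.6-fold by share). The others listed in spleen were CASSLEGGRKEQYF, named above, and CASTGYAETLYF of Trbv19, with 113 against 2 UMIs. The remaining 7 clonotypes, with 90 to 290 UMIs in tumor, had 0 in spleen and included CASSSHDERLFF of Trbv29 (127 UMIs), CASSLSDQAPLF of Trbv15 (124 UMIs) and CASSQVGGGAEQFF of Trbv5 (90 UMIs). A Trbv19 with Trbj1-3 chain of 16 residues had 93 UMIs in tumor and 101 in tdLN, again with 0 in spleen, and a Trbv13-1 with Trbj2-4 chain of 15 residues had 103 and 21.

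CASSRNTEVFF stood apart among these large tumor clonotypes. It had 199 UMIs in tumor and 0 in the BF10 spleen, at least 57.0-fold more by share, yet it was listed in 9 of 9 samples of the other treatments. Its UMIs were 384, 924 and 233 in the tumors of IL-10-Fc, control IgG and αCSF1R mice, and 6, 1 and 3 in their spleens. Its CDR3 has 0 junction bases, so it can be read entirely from Trbv17 and Trbj1-1. No other of the 10 was listed in more than 1 sample of another treatment.

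Of the 5 largest beta chains of the spleen, 1 was listed in the tumor, against 3.74% of all spleen TRBC clonotypes. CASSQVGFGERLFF had 258 UMIs in spleen (0.172%) and 0 in tumor, at least 100.1-fold more in spleen by share. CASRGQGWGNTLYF of Trbv26 had 85 against 0, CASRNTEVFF of Trbv13-1 had 75 against 0, and a Trbv16 with Trbj2-3 chain of 17 residues had 76 against 0. The fifth, a Trbv29 with Trbj2-4 chain of 16 residues, had 59 UMIs in spleen and 1 in tumor.

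Among alpha chains 1 CDR3, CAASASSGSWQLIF of Traj22, led both tissues. With a V region given as Trav14d-3-dv8 or Trav14n-3 it had 174 UMIs in tumor and 117 in spleen, and with Trav14-2 or Trav14n-2 it had 147 and 185. The Trav14 copies are near-identical, so the split between them is uncertain. Both forms were listed in 9 of 9 samples of the other treatments. The same CDR3 protein was encoded in many ways: 50 tumor clonotypes with 21 nucleotide sequences (750 UMIs) and 50 spleen clonotypes with 23 (629 UMIs). The next 3 alpha chains of the tumor were not listed in spleen: a Trav5d-4 with Traj53 chain of 15 residues (123 UMIs), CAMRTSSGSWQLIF of Trav16n (104 UMIs) and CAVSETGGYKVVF of Trav1 (104 UMIs). In spleen, a Trav16n with Traj42 chain of 17 residues had 161 UMIs against 6 in tumor, and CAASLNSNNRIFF of Trav7d-2 had 129 against 0.

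V region use was compared as the share of the UMIs of a chain, over regions with at least 0.1% in either tissue. For TRBC, 1 of 22 V regions differed by more than 1.5-fold between tumor and spleen (4.55% of those compared). That region was Trbv29, on GRCm38 at chr6:41271394-41271881, which took 14.5% of TRBC UMIs in tumor (14.3% to 14.6%) and 9.39% in spleen (9.24% to 9.54%), a fold of 1.54. The fold was 1.43 when each clonotype was counted once, and the region was spread over 12660 clonotypes in tumor. Trbv29 was the largest V region of the tumor, whereas Trbv16 led in spleen at 11% (11.2% in tumor, 1.01-fold).

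The other large shifts were smaller. Trbv19 had 10.2% in tumor against 8.51% in spleen (1.19-fold), Trbv3 7.75% against 6.57% (1.18-fold) and Trbv17 4.39% against 4.03% (1.09-fold). Lower in tumor were Trbv31 and Trbv5 (both 0.752-fold), Trbv2 (0.767-fold), Trbv26 (0.781-fold) and Trbv20 (0.801-fold). The 3 Trbv13 regions, a family of closely related segments, were all lower, at 14.5% together in tumor and 17.6% in spleen. Counting intervals were apart for 18 of 22 regions, 4 of them higher and 14 lower in tumor. The UMIs of 1 clone share a V region, so this count is not a test. A share gained by Trbv29 is by construction lost by the rest, so these shifts are not independent.

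The spleens of the other treatments gave a further reference for V use. Trbv29 took 13.2% to 14.2% of TRBC UMIs in these 3 spleens, so the BF10 tumor lay 1.07-fold above their mean and the BF10 spleen below all 3. The BF10 spleen was outside the range of the other spleens for 16 of 22 regions, above it for 13 and below it for 3. Against the mean of the other 3 spleens, a comparison added after seeing the data, 0 of 22 regions of the BF10 tumor passed 1.5-fold. The share of UMIs that would have to change V region to make a pair of samples equal was 8.51% between the BF10 tumor and the BF10 spleen. Between the BF10 tumor and the spleens of IL-10-Fc, control IgG and αCSF1R mice it was 1.63%, 4.01% and 4.84%. The BF10 spleen was 6.38% to 9.04% from the other spleens, and these were 3.21% to 3.99% from each other. The beta V use of the BF10 tumor was therefore nearer to each of the other 3 spleens than to the spleen of its own treatment. With 1 sample per group, treatment, mice and sample preparation cannot be told apart. Within the other treatments the tumor-to-spleen fold of Trbv29 was 0.927 (IL-10-Fc), 0.449 (control IgG) and 0.378 (αCSF1R). Of the same 22 regions, 0, 15 and 18 passed 1.5-fold between tumor and spleen in these treatments.

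**Figure D1:**
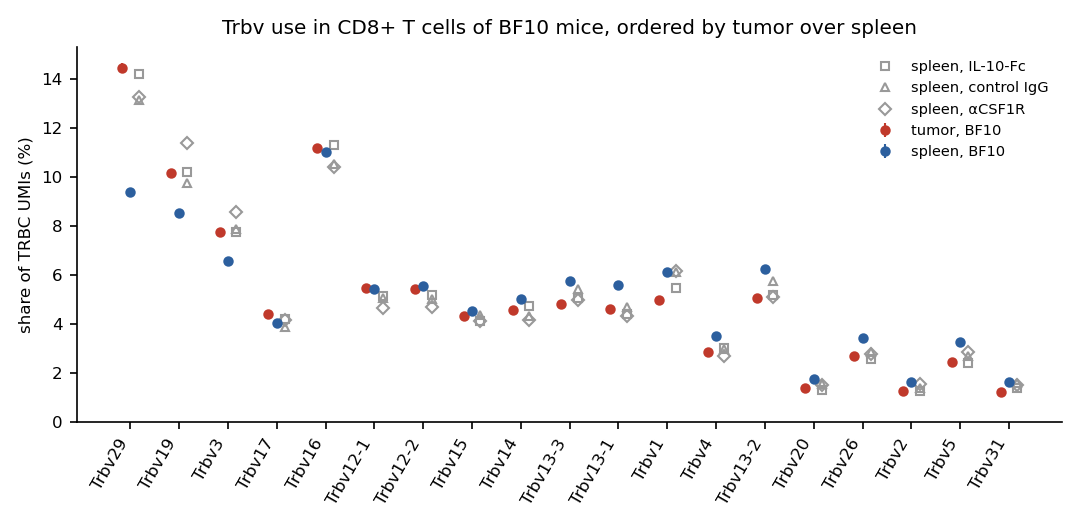
Share of TRBC UMIs (vertical axis, %) of the 19 Trbv regions with at least 1% in either BF10 sample, ordered by tumor over spleen. Filled circles are the BF10 tumor (red) and BF10 spleen (blue), whose 95% Wilson intervals are about as small as the symbols, and open grey symbols are the spleens of the other 3 treatments. Trbv29 stands at 14.5% in the BF10 tumor and 9.39% in the BF10 spleen, with the other spleens at 13.2% to 14.2%.

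J region use was much closer. The beta J segments lie in a Trbj1 and a Trbj2 cluster, and 0 of 12 passed 1.5-fold (0% of those compared). The Trbj1 cluster had 30.0% of TRBC UMIs in tumor and 30.6% in spleen. Trbj2-7, Trbj2-1 and Trbj2-5 were the most used in both tissues, at 21.4%, 14% and 10.8% in tumor and 21.3%, 13.6% and 10.2% in spleen. The largest folds were 1.06 for Trbj2-2, 0.937 for Trbj1-4 and 0.955 for Trbj1-3. Beta J use thus differed little between samples whose V use differed.

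For TRAC, V regions were taken by family, since many mouse Trav segments exist in near-identical copies. Of 19 families 1 passed 1.5-fold (5.26% of those compared), and it was Trav11 (chr14:53519303-53519859), a minor family with 0.246% of TRAC UMIs in tumor (0.219% to 0.276%) and 0.654% in spleen (0.610% to 0.702%), or 0.375-fold. Counted by clonotype, its fold was 0.942, so the difference lay in the size of clonotypes rather than in their number. Among the families with at least 1%, Trav14 differed most, at 14.9% in tumor and 11.8% in spleen (1.26-fold). Like Trbv29, it was lower in the BF10 spleen than in the other 3 spleens, which had 15.1% to 17.0%. Trav7 (13.3% and 13.8%) and Trav12 (13.2% and 13.5%) were the next largest. Trav19 (1.06-fold), Trav3 (1.03-fold), Trav16 (1.01-fold) and Trav8 (6.78% and 6.76%) were the next by fold, and Trav4 (0.843-fold), Trav13 (0.913-fold), Trav5 (0.914-fold), Trav6 (0.946-fold) and Trav7 (0.958-fold) were lower in tumor. By Trav family, 3.60% of UMIs separated the BF10 tumor from its spleen, and 1.89%, 3.30% and 4.80% separated it from the IL-10-Fc, control IgG and αCSF1R spleens.

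Of 41 Traj segments 0 passed 1.5-fold (0% of those compared). Traj22 had 8.18% of TRAC UMIs in tumor and 7.36% in spleen (1.11-fold), and Traj30 6.87% and 6.34% (1.08-fold). Traj11 was at 1.11-fold, Traj21 and Traj50 at 1.06-fold. Traj31 was the third largest in both, with 5.11% against 5.74% (0.890-fold), and Traj23 (0.917-fold), Traj39 (0.918-fold) and Traj6 (0.924-fold) were also lower. The lowest was Traj18, at 1.41% in tumor and 1.87% in spleen (0.753-fold).

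Trav11 and Traj18 (chr14:54200777-54200842) meet in the invariant alpha chain of natural killer T cells, a T cell type that sees lipids on CD1d and is known to be plentiful in liver and spleen. The pair had 21 of 117661 TRAC UMIs in the tumor (0.0178%, 0.0117% to 0.0273%) and 470 of 118744 in the spleen (0.396%, 0.362% to 0.433%), 22.2-fold more. It was spread over 15 clonotypes in tumor and 26 in spleen. A single CDR3 protein in 6 nucleotide forms made up 404 of the 470 spleen UMIs, and 1 of these forms was listed in tumor with 2 UMIs. The form printed above had 114 UMIs in spleen and those 2 in tumor, with 0 junction bases. Outside this pair, Trav11 had 0.228% in tumor and 0.259% in spleen and Traj18 had 1.39% and 1.47%, so most of the difference in both segments lay in the pair. The invariant pair had 0.570% and 0.586% in the spleens of control IgG and αCSF1R mice but 0.0511% in that of IL-10-Fc mice, and 0.0304% to 0.114% in the other tumors. The alpha chain of mucosal-associated invariant T cells, Trav1 with Traj33, was rare in both tissues, with 14 UMIs in tumor and 8 in spleen. Whether the cells that gave these invariant alpha chains carried CD8 could not be checked in these data.

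Gamma and delta chains marked a further difference. No marker gene was measured, so neither the cells that gave these chains nor the CD8+ selection could be checked. Gamma and delta chains made up 0.898% of all UMIs in tumor (0.865% to 0.933%) and 2.30% in spleen (2.25% to 2.36%). Fewer gamma delta T cells and less RNA per cell cannot be told apart in pooled RNA, here and in the other shares. Unlike in BF10 mice, gamma and delta chains had the higher share in tumor in every other treatment. The αCSF1R tumor had 8.93% and its spleen 1.79%. Control IgG mice had 4.27% in tumor against 1.96% in spleen. The gap was smallest with IL-10-Fc, where tumor had 0.873% and spleen 0.677%.

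Within these chains, Trgv5 (chr13:19192278-19192725) with Trgj1 had the largest fold between the tissues among the pairs compared. The canonical chain of this pair, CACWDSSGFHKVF, is known from the dendritic epidermal T cells of mouse skin. The pair had 132 of 1174 TRGC UMIs in tumor (11.2%, 9.56% to 13.2%) and 8 of 3153 in spleen (0.254%, 0.129% to 0.50%), a 44.3-fold difference in share. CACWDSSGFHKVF itself had 92 UMIs in tumor and 4 in spleen, and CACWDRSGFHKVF had 37 and 0. The same direction was seen in each other treatment, with 5.34%, 11% and 27.3% in the tumors of IL-10-Fc, control IgG and αCSF1R mice and 0.338% to 0.678% in their spleens. The same CDR3 protein joined to Trgv6, known from gamma delta T cells of mucosal tissues, went the other way in BF10 mice. It had 15 UMIs in tumor (1.28%) and 126 in spleen (4.00%), and 5335 in the BF10 tdLN. In control IgG mice its shares were alike, at 176 of 6555 TRGC UMIs in tumor and 73 of 2959 in spleen. These were 11 of 1143 and 13 of 737 in IL-10-Fc mice, and 57 of 4433 and 87 of 2692 in αCSF1R mice. In BF10 mice Trgv1 (7.67% against 16.9%) and Trgv4 (5.20% against 9.42%) also had lower shares in tumor. Trgv2 was the largest in both (47.4% and 43.4%).

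Among delta chains, Trdv4 with Trdj2, the pair that the epidermal and the Trgv6 cells both use, had 113 of 1479 TRDC UMIs in tumor (7.64%, 6.39% to 9.11%) and 92 of 3192 in spleen (2.88%, 2.36% to 3.52%). Most of it was 1 clonotype of 17 residues, printed above, with 87 UMIs in tumor and 86 in spleen. It was the largest delta clonotype of both tissues and had 2152 UMIs in the BF10 tdLN. The pair had 4.47%, 45.1% and 81.3% in the tumors of IL-10-Fc, control IgG and αCSF1R mice. Trdv2-2 was the largest delta V region, at 32.5% in tumor and 24.7% in spleen, and Trav15d-2-dv6d-2 was lower in tumor (4.46% against 10.5%).

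**Figure D2:**
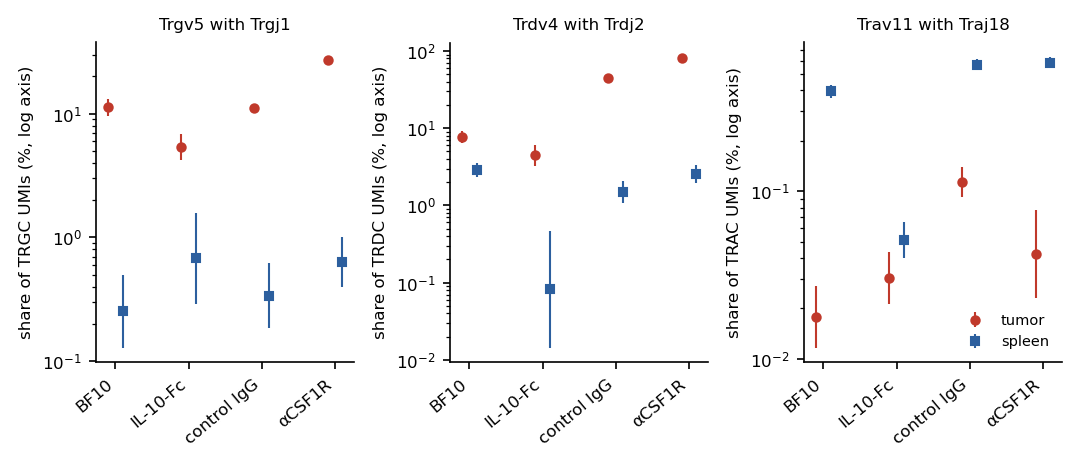
Shares of Trgv5 with Trgj1 among TRGC UMIs, Trdv4 with Trdj2 among TRDC UMIs and Trav11 with Traj18 among TRAC UMIs (vertical axes, %, log scale) in the tumor (red circles) and spleen (blue squares) of each treatment, with 95% Wilson intervals. In BF10 mice the gamma pair was 11.2% in tumor and 0.254% in spleen, the delta pair 7.64% and 2.88%, and the alpha pair 0.0178% and 0.396%.

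CDR3 length hardly differed between the tissues. The mean TRBC length was 13.87 residues in tumor and 13.89 in spleen by UMI, a difference of -0.019, and the mean TRAC length was 13.56 in both. The most common length was 14 residues, with 31.4% of TRBC UMIs in tumor and 31.2% in spleen, and 31.7% and 31.5% of TRAC UMIs. No single length differed by more than 0.799 percentage points for TRBC or 0.305 for TRAC, and both of these were at 13 residues. In IL-10-Fc mice the tumor-minus-spleen TRBC difference by UMI was -0.006, against -0.284 in control IgG and -0.362 in αCSF1R mice. With each clonotype counted once these were -0.017, 0.079 and -0.099. The control IgG difference thus changed sign and depended on the size of clonotypes.

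The tumor clonotypes were then split by whether the same clonotype was listed in the spleen. For TRBC, 3237 of 90267 were (3.59%, 3.47% to 3.71%), and they held 4.88% of tumor UMIs. For TRAC it was 6325 of 55103 (11.5%, 11.2% to 11.7%), with 19.1% of tumor UMIs. Seen from the spleen, the same clonotypes were 3.74% of TRBC and 10.9% of TRAC clonotypes. Among gamma chains 93 of 289 tumor clonotypes were listed in spleen (32.2%), and among delta chains 6 of 619. The tumor clonotypes not listed in spleen had a mean of 21.2 junction bases for TRDC, 10.3 for TRBC, 3.90 for TRAC and 4.91 for TRGC. The chains with a diversity segment, beta and delta, had the longer joints and the lower shares. TRGC, however, had more junction bases than TRAC (4.91 against 3.90) and a higher share (32.2% against 11.5%). The chains also differed in depth, with 1174 TRGC and 1479 TRDC UMIs in tumor.

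Tumor clonotypes with a counterpart in spleen were larger. They had a mean of 2.64 UMIs for TRBC against 1.91 for the others (1.38-fold), and 3.55 against 1.95 for TRAC (1.82-fold). The medians were 2 UMIs on both sides for both chains. A single UMI was seen for 40.6% of listed and 48.4% of other TRBC clonotypes, and for 29.4% and 47.7% of TRAC clonotypes. A size of at least 6 UMIs was seen for 6.52% of listed and 1.65% of other TRBC clonotypes, and for 14.7% and 1.91% of TRAC clonotypes. A clonotype with more UMIs also has more chances to be seen in any other sample, so size and listing are linked by sampling too.

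**Figure D3:**
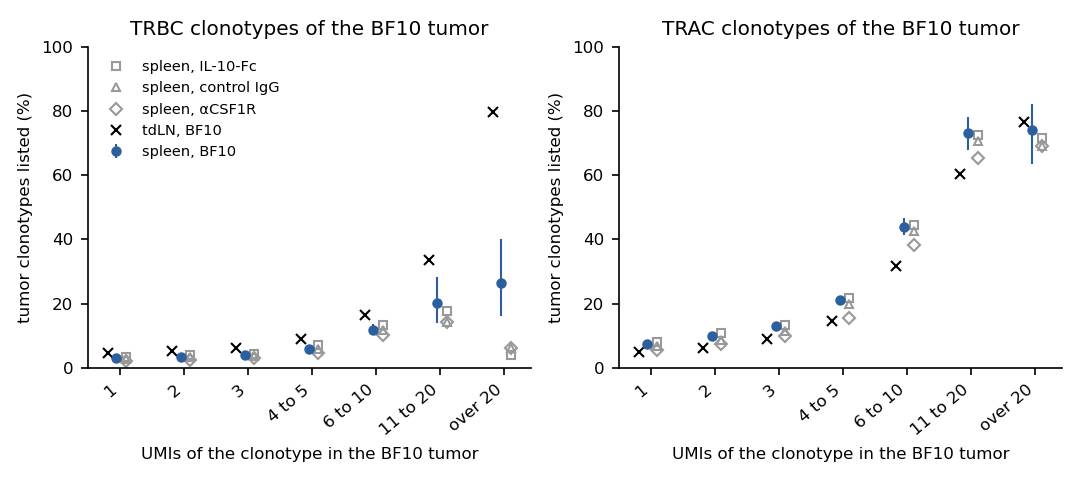
Share of BF10 tumor clonotypes listed in another sample (vertical axis, %) by their UMIs in the tumor (horizontal axis), for TRBC (left) and TRAC (right). Blue circles are the BF10 spleen with 95% Wilson intervals, grey open symbols the spleens of the other 3 treatments and crosses the BF10 tdLN. For TRBC clonotypes over 20 UMIs the BF10 spleen lists 26.5%, the other spleens 4.08% to 6.12% and the BF10 tdLN 79.6%, whereas for TRAC all 4 spleens lie between 69.1% and 74.1%.

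The spleens of the other treatments, which cannot hold the same clones because they come from other mice, gave the level to read this against. They listed 4.08% (IL-10-Fc), 3.37% (control IgG) and 2.65% (αCSF1R) of the BF10 tumor's TRBC clonotypes, against 3.59% for the BF10 spleen. At equal UMIs per spleen these were 3.88%, 3.34% and 2.63%, against 3.59%. For TRAC they listed 12.0%, 10.5% and 8.73%, against 11.5%. The shares stood in the same order as the number of clonotypes in each spleen. For TRBC these were 100671 (IL-10-Fc), 86538 (BF10), 79715 (control IgG) and 64394 (αCSF1R). For TRAC they were 62175, 57954, 51653 and 40731. The part of these numbers in the shares was not tested. Over all clonotypes the BF10 spleen thus lay within the range of spleens of other mice for both chains.

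The same held for small and medium clonotypes. Of TRBC clonotypes with 1 UMI in tumor, the BF10 spleen listed 3.02% and the other spleens 2.13% to 3.35%. Of those with 6 to 10 UMIs it listed 174 of 1476 (11.8%), against 148 to 196 in the others. It was at the top of the range for 11 to 20 UMIs, with 24 of 119 (20.2%) against 17 to 21 in the other spleens. Over both chains and all size classes, the BF10 spleen was above every other spleen by more than its own interval for TRBC clonotypes with more than 20 UMIs only, with 13 of 49 listed (26.5%, 16.2% to 40.3%) against 2, 3 and 3 of 49. The intervals of the other spleens reached 16.5%. The BF10 tdLN listed 39 of these 49 (79.6%), against 3 to 5 in the nodes of other treatments. The BF10 tdLN was a less like sample. At least 7 reads were behind 8.26% of its TRBC UMIs, against 41.4% in tumor and 41.0% in spleen. Gamma and delta chains were 6.34% of all its UMIs. For TRAC no size class set the BF10 spleen apart: of 81 clonotypes over 20 UMIs it listed 60, and the other spleens 56 to 58.

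Clonotypes listed in both tissues had shorter joints. TRBC clonotypes with a counterpart in spleen had a mean of 6.96 junction bases against 10.3 for the others, and a mean CDR3 length of 13.18 against 13.94 residues. For TRAC these were 2.09 against 3.90 bases and 13.40 against 13.62 residues. Joints with 0 junction bases made up 4.02% of listed and 0.243% of other TRBC clonotypes, and 28.0% and 7.16% of TRAC clonotypes.

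**Figure D4:**
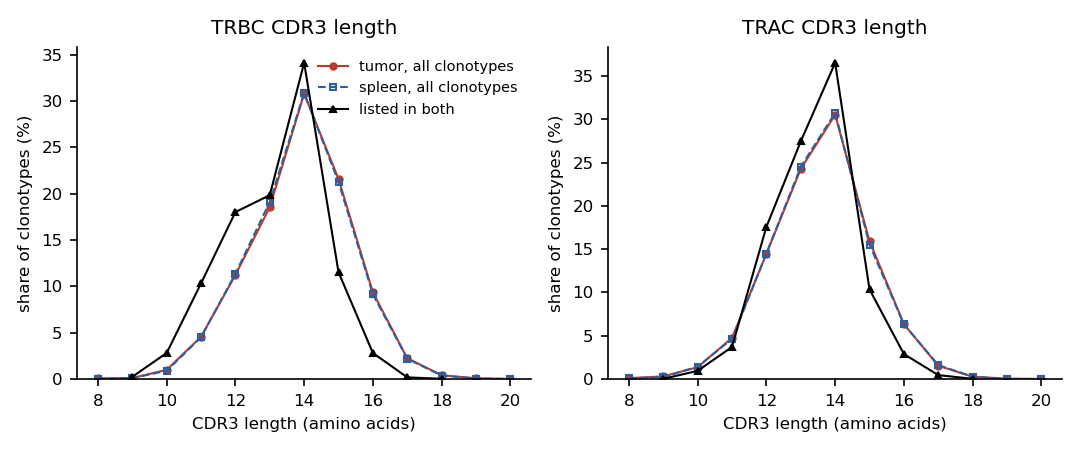
CDR3 length (horizontal axis, amino acids) against share of clonotypes (vertical axis, %) for TRBC (left) and TRAC (right). Red circles are all BF10 tumor clonotypes, open blue squares all BF10 spleen clonotypes and black triangles the clonotypes listed in both. The tumor and spleen curves lie on each other, and the curve of clonotypes listed in both is shifted to shorter CDR3s, with means of 13.18 against 13.94 residues for TRBC.

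The share of TRBC clonotypes listed in spleen was 38.1% for those with 0 junction bases (130 of 341), 14.4% with 1 to 3, 7.71% with 4 to 6, 3.77% with 7 to 9, 2.10% with 10 to 12 and 1.06% with 13 or more. Clonotypes with 1 UMI in tumor gave nearly the same series, from 37.5% to 0.927%, so the relation was about as steep among clonotypes of 1 size. By CDR3 length the share was 10.1% at 10 residues and 0.296% at 17. For TRAC the share was 33.8% with 0 junction bases, 13.2% with 1 to 3 and 4.54% with 4 to 6, then 6.35% and 6.48% with 7 to 9 and 10 to 12, and 0.112% (1 of 892) with 13 or more. The higher values from 7 to 12 bases stand beside the Trav9 family, whose clonotypes had a mean of 5.79 junction bases against 3.00 to 4.45 in the other families. Its part in these values was not tested.

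**Figure D5:**
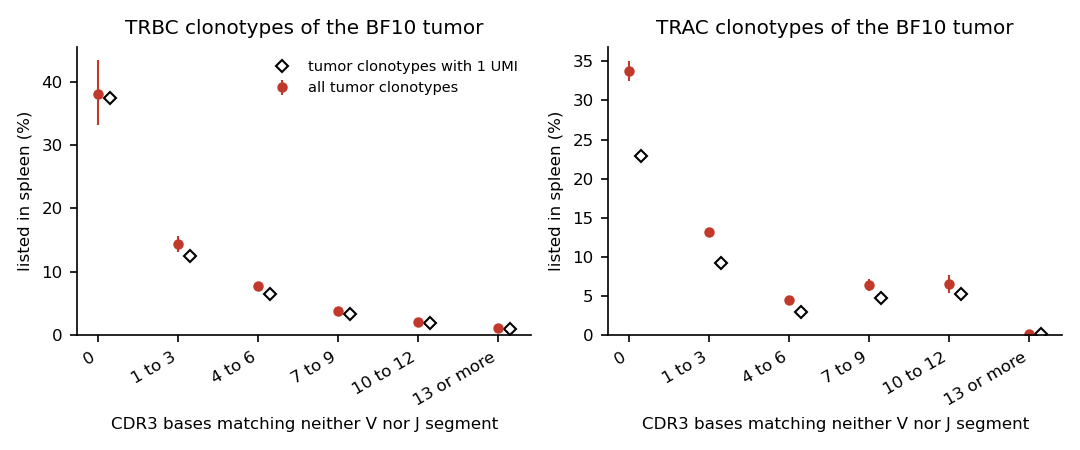
Share of BF10 tumor clonotypes listed in the BF10 spleen (vertical axis, %) by the number of junction bases in the CDR3 (horizontal axis), for TRBC (left) and TRAC (right). Red circles are all tumor clonotypes with 95% Wilson intervals, and open diamonds are those with 1 UMI in tumor. For TRBC the share is 38.1% with 0 junction bases and 1.06% with 13 or more.

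Regions differed in how often their clonotypes were listed in both tissues. Among Trbv regions the share was highest for Trbv16 (4.67%, 4.28% to 5.09%) and Trbv29 (4.45%, 4.10% to 4.82%) and lowest for Trbv31 (0.919%, 0.514% to 1.64%). Among Trbj segments it was highest for Trbj1-2 (5.47%) and Trbj2-7 (4.61%) and lowest for Trbj1-5 (1.91%). Traj12 (19.1%), Traj22 (18.2%) and Traj30 (16%) led among alpha J segments. Among alpha V families Trav19 (16.8%) led, and Trav15 (3.88%) and Trav5 (5.66%) were lowest. A match needs the same V and J region in spleen, so a much used region offers more clonotypes to match. Trbv16 and Trbv29 held 11.4% and 9.82% of spleen TRBC clonotypes. The part of region use in these shares was not tested.

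The clonotypes with the largest share in both tissues at once show the same pattern. For TRBC they were led by a Trbv1 with Trbj1-1 chain of 14 residues, printed above, with 22 UMIs in tumor and 14 in spleen. The others were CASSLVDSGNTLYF (19 and 13), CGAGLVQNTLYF (123 and 10), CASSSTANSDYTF (16 and 10), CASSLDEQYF (16 and 10), a Trbv13-1 with Trbj1-2 chain of 13 residues (11 and 12), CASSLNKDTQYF (10 and 21), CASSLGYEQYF (9 and 11), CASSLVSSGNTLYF (9 and 9) and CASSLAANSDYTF (9 and 8). Of these 10, 7 used Trbv16, which took 15.2% of all TRBC clonotypes listed in both tissues and 11.7% of all tumor TRBC clonotypes. The junctions of the 10 had 0 to 9 bases. Of all TRBC clonotypes listed in both tissues, 17.7% were in 4 to 6 of the 9 samples of other treatments. A further 1.98% were in 7 to 9. Of the 10 named here, 8 were in 4 to 8 of these samples. The exceptions were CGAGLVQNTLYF and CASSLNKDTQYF, which were listed in none of the 9 and had 25 and 38 UMIs in the BF10 tdLN. For TRAC, all 5 had 0 junction bases: both forms of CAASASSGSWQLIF, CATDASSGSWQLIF of Trav8-1 (76 UMIs in tumor, 77 in spleen), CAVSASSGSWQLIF of Trav3n-3 (91 and 74) and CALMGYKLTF (64 and 68). These were listed in 8 or 9 of the 9 other samples, whereas 9.23% of all TRAC clonotypes listed in both tissues were in 7 to 9.

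Most clonotypes listed in both tissues were also listed outside the BF10 mice. Of the TRBC clonotypes with a counterpart in spleen, 66.5% were in at least 1 of the 9 samples of other treatments, against 12.0% of the others, and for TRAC it was 81.0% against 23.7%. The 1085 TRBC clonotypes that were in both BF10 tissues and in none of these 9 samples had a mean of 2.79 UMIs in tumor and 8.09 junction bases. The 64 that were in 7 to 9 of them had 6.16 UMIs and 4.88 junction bases. For TRAC, 1202 were in none (2.23 UMIs, 2.80 junction bases) and 584 in 7 to 9 (9.91 UMIs, 1.25 junction bases).

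The sizes of the same clonotype in tumor and spleen were weakly related for beta and more closely for alpha chains. Over the 3237 TRBC clonotypes in both, Pearson's r of the log UMIs was 0.117, and over the 6325 TRAC clonotypes it was 0.401. Clonotypes are not independent replicates, and these values describe 1 pair of samples. At least 6 UMIs in both tissues were reached by 28 TRBC and 423 TRAC clonotypes. A share at least 10-fold higher in tumor was seen for 12 of the TRBC clonotypes in both tissues, and at least 10-fold higher in spleen for 11.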

How the data were processed

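CD8+ T cells were isolated by the authors with magnetic beads, RNA of 3 mice was mixed per sample, and TCR libraries with UMIs were made and analysed in the portal of the kit's maker. The deposited counts are whole numbers of UMIs per clonotype, given for minimum read numbers per UMI from 3 to 7 and not normalized. The deposited fraction of each clonotype was made by the authors by dividing its UMIs by the total of the chain in the sample, and it was used only to check the counts, from which it differed by at most 4.86e-13 over the clonotypes of all samples. The submitters' processing notes name the build mm10. Which germline set and error correction the portal applied is not given in the sources used here. Of columns with values of a sample, 0 had no match to a label.

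Groups were taken from the labels. A clonotype counted as listed in another sample if chain, V region, J region and CDR3 nucleotides were the same. V and J regions with at least 0.1% of a chain's UMIs in either sample were compared by the fold of their shares, with a call at 1.5-fold, and Trav regions were pooled by family. Depth sets the precision, which is given as 95% Wilson intervals, and a count of 0 allows 3 UMIs. Junction bases are the CDR3 bases between the longest match to the germline V segment and that to the J segment of GRCm38. In TRBC 99.6% and in TRAC 99.3% of clonotypes could be placed. No test was run, since each group is 1 pooled sample. Regions named in the text are those with at least 1% of UMIs that had the largest folds (5 Trbv, 5 Trav families, 3 Trbj and 5 Traj in each direction) or the 3 largest shares. Named clonotypes are the 10 TRBC and 5 TRAC clonotypes with the most UMIs in tumor, the 5 and 3 with the most in spleen, the 10 and 5 with the largest value of the smaller of their 2 shares, and the largest TRGC and TRDC clonotype of each sample. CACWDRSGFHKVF and the separate nucleotide forms of Trav11 with Traj18 were added after their values were seen. The 2 samples, the lists and the named chains were chosen with earlier results of these data known. The steps were tested on simulated data. Software was samtools 1.23.1, matplotlib 3.10.9, scipy 1.17.1, pandas 2.3.3, numpy 2.4.6 and Python 3.11.15.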

Additional observations from a re-analysis of the deposited data

Results flagged for a closer look

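Trbv29 took a 1.54-fold higher share of TRBC UMIs in tumor than in spleen of BF10 mice, whereas in control IgG mice the tumor share was 0.449 of that in spleen. The opposite directions drew attention to it. In control IgG mice 15 of the 22 Trbv regions passed 1.5-fold between tumor and spleen. Such a shift was thus not particular to Trbv29 there. With 1 pooled sample per treatment and tissue the difference was not tested. The BF10 spleen had a Trbv29 share of 9.39%, below the 13.2% to 14.2% of the other 3 spleens, and the BF10 tumor had 14.5%.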

How the results depend on the processing

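Of 50 alternative values, 25 stayed within the interval of the main value or kept its count, and 25 moved. For ratios of means and length differences, the interval was a normal approximation that took each UMI as independent. It was 1.35 to 1.41 for the TRBC ratio and -0.0327 to -0.0053 residues for the TRBC length difference. The share of tumor clonotypes listed in spleen depended most on how a clonotype was defined. For TRBC (3.59%) it was 2.55% with UMIs of at least 7 reads, 2.28% with clonotypes of at least 2 UMIs, 5.09% by CDR3 nucleotides alone and 20.2% by CDR3 amino acids alone. For TRAC (11.5%) these were 8.87%, 10.8%, 21.7% and 36.3%, and 10.99% after merging CDR3s that are 1 base apart. The ratio of mean tumor UMIs for TRBC (1.38) was 1.33 with 7 reads, 1.54 with at least 2 UMIs, 2.06 by amino acids and 1.30 without the 10 largest tumor clonotypes. For TRAC (1.82) these were 1.65, 1.79, 2.78 and 1.77. The TRBC length difference (-0.019 residues) was -0.00445 with each clonotype counted once and -0.0401 with 7 reads. That for TRAC (-0.00223) lay near 0 and changed sign, at 0.00504 with 7 reads and 0.000399 without the 10 largest clonotypes. The number of Trbv regions past 1.5-fold (1) was 0 with each clonotype counted once, 0 at a fold of 2 and 0 against the mean of the other 3 spleens, which was added after seeing the data. The number of Trav families (1) was 0 with each clonotype counted once and 0 among families with at least 1%. The number of Traj segments (0) was 1 with 7 reads. The cause of these shifts was not tested. No paired analysis was possible because the comparison within BF10 mice holds 1 tumor and 1 spleen sample.

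With 1 pooled sample per tissue, spread between mice is unknown. A clonotype not listed in a sample was not detected at this depth, which does not show that it was absent. A single UMI was behind 48.2% of TRBC clonotypes of the tumor.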
